A study of Mus musculus with 21 samples.

Results

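The genes described here encode the ILK, PINCH, parvin and kindlin module of cell-matrix adhesions, namely Ilk, Lims1, Lims2, Parva, Parvb, Rsu1, Fermt2 and Fblim1. These 8 genes, of 45706 in the deposited count table, were taken by gene symbol because Parvb was lower and Lims2 higher with Hsp90aa1 siRNA in carcinoma fibroblasts, so that contrast is given as a description with no test. All 8 were among the 15230 genes kept by the filter on low counts, and Lims2 was scarce in normal fibroblasts, with 1 to 29 counts per library. RNA was sequenced from cultured mouse mammary fibroblasts, as 7 groups with 3 libraries each, 21 in all. CAF are fibroblasts of the line CAF1 from MMTV-PyMT mammary carcinomas, tumours driven by the polyoma middle T oncogene under a promoter active in mammary epithelium, and NF are fibroblasts of the line NF1 from normal FVB/n mammary glands. Because each origin is a single line, tumour origin and line cannot be told apart. The CAF groups were CAF with Hsp90aa1 siRNA (siHsp90aa1), CAF with Hsp90ab1 siRNA (siHsp90ab1) and CAF with control siRNA, all with vehicle. The NF groups were NF with siHsp90aa1 and TGFb1, NF with siHsp90ab1 and TGFb1, NF with control siRNA and TGFb1, and NF with control siRNA and vehicle. All cells were transfected with 100 nM siRNA in medium with 10% serum, TGFb1 was given at 5 ng/mL for 43 h, and RNA was harvested at 48 h. The knockdowns were thus measured with TGFb1 in NF and with vehicle in CAF, so that line and TGFb1 cannot be told apart where knockdowns in the lines are set side by side.

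Integrins link the extracellular matrix to actin through adaptor proteins that gather on their cytoplasmic tails. ILK is a pseudokinase that forms a stable complex with a PINCH and a parvin, and the complex is recruited to integrins with the help of kindlin. PINCH1 and PINCH2, encoded by Lims1 and Lims2, are LIM domain adaptors, and Rsu1 binds PINCH1. Alpha-parvin, from Parva, and beta-parvin, from Parvb, are alternative partners of ILK that bind actin, and beta-parvin also binds the PIX exchange factors for Rac and Cdc42. Kindlin-2, from Fermt2, activates integrins together with talin, and migfilin, from Fblim1, binds kindlin-2 and filamin. The HSP90 chaperones Hsp90aa1 and Hsp90ab1 fold and stabilise many signalling proteins, and ILK protein has been described as one of their clients. RNA levels do not measure that step. In such cultures, fewer cells of a type and less RNA per cell cannot be told apart.

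Promoters are shown for the 3 genes that fell with siHsp90aa1 in TGFb1-treated NF, which are Parvb, Fermt2 and Fblim1. The 300 bases run from 250 before to 50 after a RefSeq transcript start in GRCm38.p6, with capitals marking every match to the motifs searched on both strands. The motifs were the TEAD element GGAATG, the AP-1 element TGANTCA, the heat shock element GAANNTTC, the SMAD element GTCTAGAC, the CArG box and the Sp1 box GGGCGG. Parvb lies on the plus strand and the window is chr15:84231793-84232092. Fermt2 lies on the minus strand and the window is chr14:45530016-45530315. Fblim1 lies on the minus strand, and of its 2 listed starts the window with a TEAD or AP-1 match, chosen after that match was seen, is chr4:141606003-141606302.
Parvb: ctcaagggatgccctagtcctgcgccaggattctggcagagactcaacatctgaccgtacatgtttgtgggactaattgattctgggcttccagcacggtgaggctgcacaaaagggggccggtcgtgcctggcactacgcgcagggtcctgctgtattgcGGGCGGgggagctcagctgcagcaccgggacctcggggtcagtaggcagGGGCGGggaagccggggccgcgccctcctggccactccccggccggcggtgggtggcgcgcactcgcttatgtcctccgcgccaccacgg
Fermt2: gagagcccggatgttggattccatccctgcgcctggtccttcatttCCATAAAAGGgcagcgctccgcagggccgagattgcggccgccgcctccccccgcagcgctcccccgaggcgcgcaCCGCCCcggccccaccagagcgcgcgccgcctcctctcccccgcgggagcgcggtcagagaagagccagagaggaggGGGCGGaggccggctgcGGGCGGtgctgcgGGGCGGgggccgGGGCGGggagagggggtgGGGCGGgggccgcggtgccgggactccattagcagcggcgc
Fblim1: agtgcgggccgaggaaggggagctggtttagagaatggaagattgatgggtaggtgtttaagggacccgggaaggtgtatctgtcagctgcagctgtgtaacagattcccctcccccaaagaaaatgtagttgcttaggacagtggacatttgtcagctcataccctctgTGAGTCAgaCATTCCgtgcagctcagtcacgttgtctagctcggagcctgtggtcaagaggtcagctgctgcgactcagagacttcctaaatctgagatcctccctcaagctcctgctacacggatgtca
The Parvb window held 2 Sp1 boxes and no other match, and the Fermt2 window held 6 Sp1 boxes and 1 CArG box, the element bound by serum response factor. The Fblim1 window held 1 AP-1 and 1 TEAD element, and the matches within the Fblim1 window did not overlap each other. Of 32851 mouse promoter windows of the same length, 35.7% held an Sp1 box, 1.63% a CArG box, 14.7% a TEAD element and 7.81% an AP-1 element. Windows were searched for 6 of the 8 genes, with 10 starts in all. Lims2 and Parva had no window in this search, so their promoters were not tested for any motif. None of the 10 windows held the heat shock element or the SMAD element, which 7.86% and 0.213% of the 32851 windows held. Rsu1 also had 1 CArG box in its single window. A letter match describes the window and is not a measured binding site.

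In GENCODE vM21 coordinates of GRCm38, Parvb spans chromosome 15 from 84232043 to 84315688 on the plus strand, Fermt2 chromosome 14 from 45458795 to 45530118 on the minus strand and Fblim1 chromosome 4 from 141576062 to 141606096 on the minus strand. Ilk (chromosome 7, 105736592 to 105742925, plus strand) overlaps Rrp8 and Taf10 on the other strand. Parva (chromosome 7, 112427505 to 112591692, plus strand) overlaps the antisense gene Parvaos, which had at most 15 counts in any library. Lims1 spans chromosome 10 from 58323466 to 58424691 on the plus strand and Rsu1 chromosome 2 from 13076821 to 13271415 on the minus strand. Lims2 lies on chromosome 18, where it overlaps Gpr17, with at most 1 count in any library. Rsu1 overlaps 4 genes, of which Gm38156, Gm37780 and Gm37160 lie on its own strand. Fermt2 overlaps Gm22637 and 9630050E16Rik on its own strand, and Lims1 overlaps Gm23058 on the other strand. The part of these genes in the values was not tested. The library kit marked strand, but whether strand was used in counting is not given in the sources used here, and Rrp8 and Taf10 had 1066 to 3750 counts, so the share of their reads within the Ilk values was not tested.

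Library totals were 35.1 to 70.4, in units of 1e+06 counts. Hsp90aa1 with its siRNA was at 10.0% of its control in CAF and 12.4% in NF, and Hsp90ab1 with its siRNA was at 9.96% and 13.3%. With siHsp90ab1, Hsp90aa1 was at 47.6% of the control in CAF and 48.1% in NF, a difference that did not pass in edgeR (adjusted p = 0.123 and 0.0722). Its log2 fold changes were -1.07 ± 0.30 and -1.05 ± 0.30 (SE), and the libraries did not overlap in either line. Hsp90aa1 was at 324 to 479 against 726 to 995 CPM in CAF, and at 253 to 327 against 543 to 671 CPM in NF. Levels are given as CPM, counts per 1e+06 library counts after TMM scaling, or, where genes are compared, as TPM, which is also scaled by transcript length. Fibroblast collagens were abundant in both lines, Col1a1 averaging 2475 to 28355 CPM per group, but other fibroblast markers were mixed. Thy1, a fibroblast surface marker, averaged 189.7 to 239 CPM in the CAF groups and at most 0.285 CPM in the NF groups. Dcn lay the other way, averaging 16.7 to 25.7 CPM in the CAF groups and 129 to 397 CPM in the NF groups. Pdgfra averaged 228 to 951 CPM per group, and Lum was below 1 CPM in all 7. Summed epithelial markers reached 22.2 CPM in CAF, chiefly Krt19, and 1.62 CPM in NF, and summed endothelial markers reached 14.3 CPM in CAF, chiefly Kdr, and 1.47 CPM in NF. Tie1, Cd3e, Myod1, Myog, Ckm and Sox10 were at 0 in every group. The p-values below measure the spread between libraries, which the labels do not describe as separate cultures or animals.

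Per transcript length, Ilk was the most abundant of the 8 genes in CAF controls, at 245 ± 10.6 TPM (SD, n = 3), and the PINCH and parvin pairs were both uneven. In CAF controls Parva averaged 184 ± 25.3 TPM and Parvb 22.0 ± 7.73 TPM, while Lims1 averaged 73.7 ± 7.02 TPM and Lims2 2.28 ± 0.401 TPM (SD, n = 3). In NF with vehicle Ilk averaged 197 ± 30.2 TPM, Parva 115 ± 7.99 TPM, Parvb 8.17 ± 2.77 TPM, Lims1 54.9 ± 2.56 TPM and Lims2 0.0483 ± 0.0231 TPM (SD, n = 3). Alpha-parvin and PINCH1 transcripts were therefore the major forms in both lines. Rsu1 averaged 182 ± 4.76 TPM, Fermt2 107 ± 19.9 TPM and Fblim1 115 ± 20.3 TPM in CAF controls, against 124 ± 6.31, 70.5 ± 6.16 and 38.7 ± 3.06 TPM in NF with vehicle (SD, n = 3). The relatives outside the set were scarce: Parvg, gamma-parvin of blood cells, stayed at or below 0.466 TPM and Fermt3, kindlin-3 of blood cells, at or below 0.893 TPM as group means, and Fermt1, kindlin-1 of epithelia, had at most 3 counts in a library.

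Across the 7 groups the genes differed widely in how far their level moved. The highest group mean was 1.53 times the lowest for Parva, 1.64 times for Lims1, 1.75 times for Fermt2, 1.82 times for Ilk and 1.97 times for Rsu1, on the CPM scale used below unless TPM is named. It was 3.02 times for Fblim1, 5.92 times for Parvb and 146 times for Lims2, whose lowest mean rests on 7 counts over 3 libraries. The wide spread of Parvb and Lims2 includes the siHsp90aa1 values in CAF by which the genes were chosen. Ilk was highest in NF with siHsp90aa1 and TGFb1 and lowest in NF with vehicle, whereas Lims1, Lims2 and Rsu1 were highest in CAF with siHsp90aa1. Parvb and Fblim1 were highest in CAF with siHsp90ab1, next to CAF controls, whose libraries overlapped with them.

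**Figure D1:**
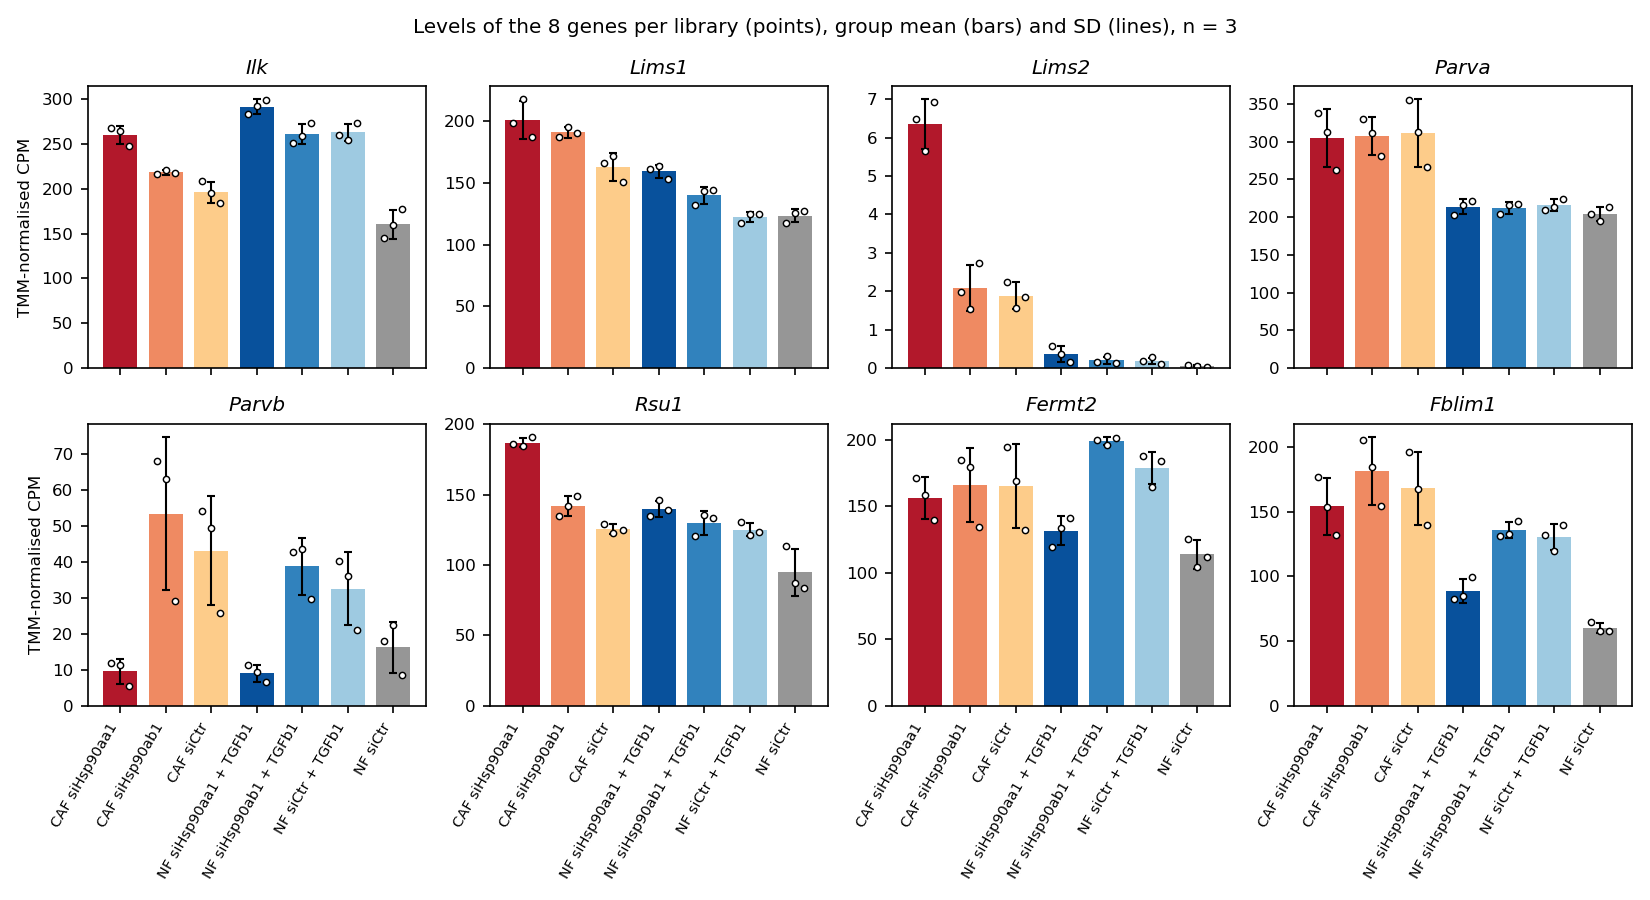
TMM-normalised CPM (linear axes from 0, one scale per gene) of the 8 genes in the 7 groups; points are libraries, bars group means and lines SD (n = 3). Parvb was near 10 CPM in both siHsp90aa1 groups, and Lims2 was above 1 CPM in the CAF groups and below 1 CPM in the NF groups.

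With siHsp90aa1 in CAF, the contrast by which the genes were chosen, Parvb was lower and Lims2, Ilk, Lims1 and Rsu1 were higher, with no overlap between libraries. Parvb was at 11.9, 11.3 and 5.55 CPM in CAF with siHsp90aa1, against 54.2, 49.4 and 25.8 CPM in CAF controls (replicates 1, 2 and 3). Its group mean was 22.2% of the control mean, a fitted log2 fold change of -2.16 ± 0.41 (SE). Lims2 was at 6.48, 5.65 and 6.93 CPM in CAF with siHsp90aa1, against 2.25, 1.56 and 1.85 CPM in CAF controls, a ratio of means of 3.37. The counts behind these values were 404, 223 and 276 with siHsp90aa1 and 153, 54 and 97 in the controls.

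The rest of the set varied less in that contrast. Rsu1 was at 186, 185 and 191 CPM in CAF with siHsp90aa1, against 129, 123 and 125 CPM in CAF controls, a log2 fold change of 0.57 ± 0.09 (SE). Ilk was at 268, 264 and 248 CPM with siHsp90aa1, against 209, 195 and 185 CPM in the controls, 0.41 ± 0.07. Lims1 was at 198, 218 and 188 CPM with siHsp90aa1, against 167, 172 and 151 CPM in the controls, 0.30 ± 0.07. Parva, Fermt2 and Fblim1 had overlapping libraries and log2 fold changes of -0.03 ± 0.10, -0.08 ± 0.13 and -0.12 ± 0.13 (SE). The 4 higher and 1 lower genes without overlap stand beside 40.4% of all tested genes without overlap, 20.9% higher and 19.5% lower, and nothing is read from that count because the genes were chosen on this contrast. Summed endothelial markers were 6.83 to 9.36 CPM in CAF with siHsp90aa1 and 3.56 to 6.44 CPM in CAF controls with Tie1 at 0, and summed muscle and pericyte markers, chiefly Notch3, were 11.5 to 16.6 CPM and 9.36 to 23.4 CPM with Myod1, Myog and Ckm at 0. Myh11, smooth muscle myosin of that list, averaged 1.88 ± 0.376 CPM in CAF with siHsp90aa1 and 1.02 ± 0.0772 CPM in CAF controls (SD, n = 3), and the part of these markers in the Lims2 values was not tested.

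In NF with TGFb1, libraries outside the contrast by which the genes were chosen, Parvb, Fermt2 and Fblim1 fell with siHsp90aa1 and Lims1 rose. Transcripts of the minor parvin, of kindlin-2 and of its partner migfilin were thus lower. The genes were chosen with earlier results of these data known, so these libraries are not fully free of that choice. Summed parvin TPM were 136 ± 6.64 with siHsp90aa1 and 145 ± 5.43 in the control (SD, n = 3), and the libraries overlapped. Parvb was at 11.2, 9.29 and 6.60 CPM in NF with siHsp90aa1 and TGFb1, against 40.4, 36.1 and 21.2 CPM in NF with TGFb1. The highest knockdown library was below the lowest control library. The group mean was 27.8% of the control mean, a log2 fold change of -1.84 ± 0.40 (SE) with an adjusted p of 0.00255 by edgeR's quasi-likelihood test with Benjamini-Hochberg adjustment over all tested genes, as used throughout.

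Fblim1, which couples kindlin-2 to filamin, was at 82.5, 84.7 and 99.4 CPM in NF with siHsp90aa1 and TGFb1, against 132, 119 and 139.7 CPM in NF with TGFb1. It fell by 0.55 ± 0.13 on the log2 scale (edgeR adjusted p = 0.00395). Fermt2, the kindlin of fibroblasts, was at 119.7, 134 and 141 CPM with siHsp90aa1, against 188, 165 and 184 CPM in the control, and fell by 0.44 ± 0.13 (edgeR adjusted p = 0.0173). Libraries of the groups did not overlap for either gene or for Parvb, and 22.5% of all tested genes were lower without overlap. The Fermt2 call was lost when 1 library was left out, namely siHsp90aa1 replicate 1 (adjusted p = 0.0832) or TGFb1 replicate 1 or 3 (0.0646 and 0.0511).

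Lims1 was at 161, 164 and 153 CPM in NF with siHsp90aa1 and TGFb1, against 118, 125 and 125 CPM in NF with TGFb1, and rose by 0.38 ± 0.07 on the log2 scale (edgeR adjusted p = 0.000538). Its paralogue Lims2 was at 0.583, 0.371 and 0.163 CPM with siHsp90aa1, against 0.178, 0.273 and 0.105 CPM in the control, on 29, 20 and 6 counts against 8, 15 and 4. The libraries overlapped, and the log2 fold change of 0.99 ± 0.44 did not pass (edgeR adjusted p = 0.101), although it passed without siHsp90aa1 replicate 3 (0.0287). Ilk, at 283, 293 and 299 CPM with siHsp90aa1 against 260, 255 and 274 CPM in the control, did not pass either (log2 fold change 0.15 ± 0.07, adjusted p = 0.118). Rsu1 and Parva had log2 fold changes of 0.16 ± 0.09 and -0.01 ± 0.10 with adjusted p of 0.189 and 0.944.

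In that comparison 1 of 8 genes rose and 3 fell, while 28.3% of all tested genes passed, 14.8% higher and 13.5% lower. The median log2 fold change of the 8 genes was 0.07, against 0.01 over all tested genes, so the set did not move in 1 direction. For Parvb the fold changes with siHsp90aa1 in the lines stood side by side at -2.16 ± 0.41 in CAF and -1.84 ± 0.40 in NF with TGFb1 (SE), and for Lims1 at 0.30 ± 0.07 and 0.38 ± 0.07. For Fermt2 they were -0.08 ± 0.13 in CAF and -0.44 ± 0.13 in NF with TGFb1, and for Fblim1 -0.12 ± 0.13 and -0.55 ± 0.13. With the replicate number as a block, Parvb had -2.17 ± 0.14 in CAF and -1.83 ± 0.14 in NF with TGFb1 (SE). Whether the fold changes with siHsp90aa1 differ between lines was not tested, since the CAF contrast chose the genes.

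**Figure D2:**
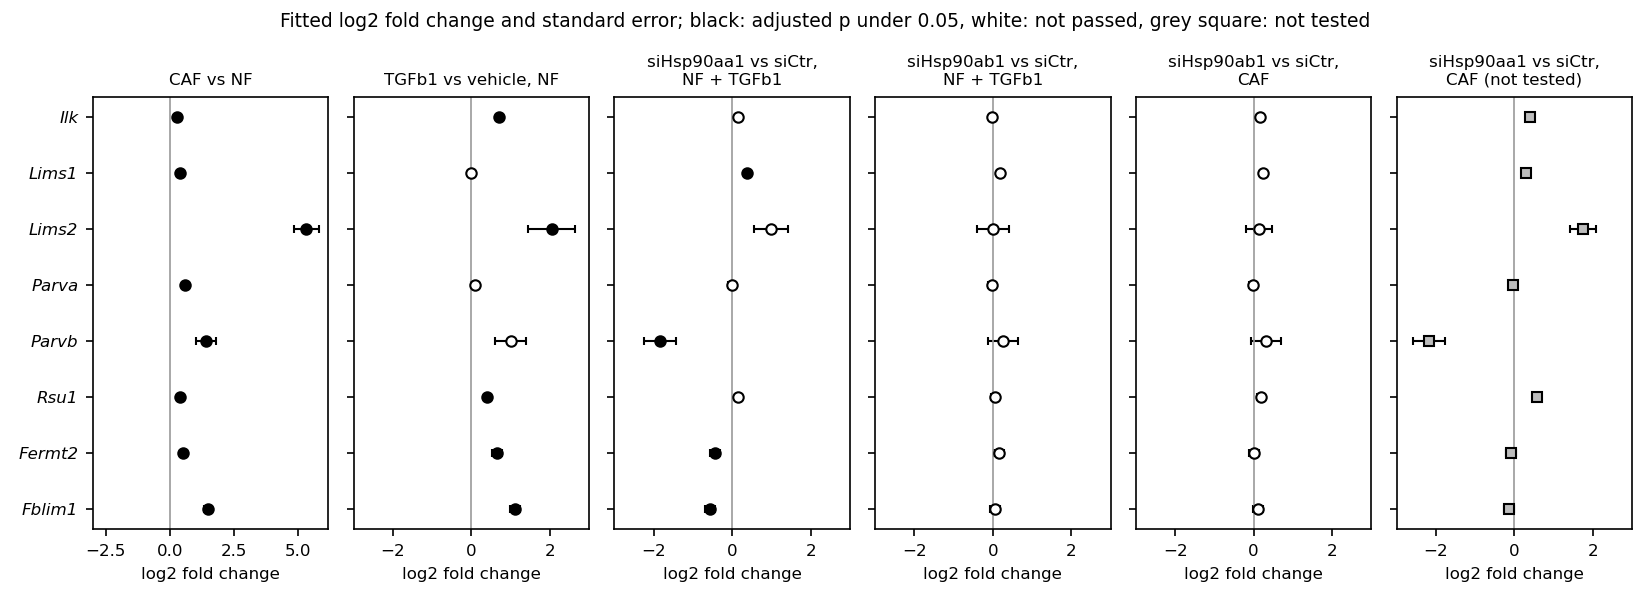
Fitted log2 fold change (horizontal axes; the first panel has a wider range) and standard error of the 8 genes in 6 comparisons of 3 libraries with 3, the group named first over the other. Black points passed at an adjusted p under 0.05, white points did not, and grey squares were not tested; Parvb was the lowest point in both siHsp90aa1 panels, at -1.84 in NF and -2.16 in CAF.

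Among 40 partner genes of the module, in lists of ILK, parvin, PINCH, kindlin and migfilin partners and of integrins with their actin link, 39 were tested, Fermt1 not. With siHsp90aa1 in NF with TGFb1, 2 of these rose, 12 fell and 25 did not pass, with a median log2 fold change of -0.14. Of all tested genes 14.8% passed as higher and 13.5% as lower in this comparison. Itgb3, the integrin beta-3 subunit that kindlin-2 binds, was at 36.0 ± 7.83 CPM with siHsp90aa1 and 92.2 ± 5.89 CPM in the control (SD, n = 3), a log2 fold change of -1.36 ± 0.20 (SE, edgeR adjusted p = 9.21e-05). Pxn, paxillin, which binds parvins and ILK, fell by 0.44 ± 0.08 to 122 ± 13.1 CPM with siHsp90aa1, against 165 ± 9.23 CPM in the control (edgeR adjusted p = 0.00074). Flnc, filamin C, and Nck2, a PINCH1-binding adaptor named because it was the other gene to rise, rose instead, Flnc by 0.50 ± 0.08 (edgeR adjusted p = 0.000261).

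The knockdowns were also set against each other within NF with TGFb1. This comparison does not use the control libraries, but it shares the siHsp90aa1 libraries with the comparison against control siRNA. Parvb was at 11.2, 9.29 and 6.60 CPM with siHsp90aa1, against 42.9, 43.7 and 29.8 CPM with siHsp90ab1, with no overlap. It was lower by a log2 fold change of -2.09 ± 0.41 (SE, edgeR adjusted p = 0.000688). Fermt2 was at 119.7, 134 and 141 CPM with siHsp90aa1, against 199.9, 196 and 201 CPM with siHsp90ab1 (log2 fold change -0.60 ± 0.13, edgeR adjusted p = 0.00186). Fblim1 was at 82.5, 84.7 and 99.4 CPM with siHsp90aa1, against 131, 133 and 143 CPM with siHsp90ab1 (-0.61 ± 0.13, 0.00138). Parvb, Fermt2 and Fblim1 were thus lower with siHsp90aa1 than with siHsp90ab1 in every library, as were 25.3% of all tested genes.

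Lims1 was higher with siHsp90aa1 than with siHsp90ab1 by 0.19 ± 0.07 (edgeR adjusted p = 0.0405), a call that was lost in 5 of the 6 fits without 1 library (adjusted p 0.0533 to 0.193), without the count filter (0.155) and in limma on TPM (0.339). Ilk, Lims2, Rsu1 and Parva did not pass, Lims2 with 0.99 ± 0.44 (adjusted p = 0.0898), which passed without siHsp90aa1 replicate 3 (0.0237) or siHsp90ab1 replicate 2 (0.041). In all, 1 of the 8 genes was higher and 3 were lower, beside 34.1% of all tested genes that passed, 17.7% higher and 16.4% lower. Of the 39 partner genes 3 were higher and 17 lower, with a median log2 fold change of -0.27. The smallest p-values were those of Itgb3 (-1.44 ± 0.20, edgeR adjusted p = 2.73e-05), of Tns1, the adhesion protein tensin-1 (-0.89 ± 0.15, 0.000207), and of Vasp, an actin elongation factor (-1.19 ± 0.23, 0.00055).

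With siHsp90ab1 set against control siRNA, none of the 8 genes passed in either line. In NF with TGFb1, 0 of 8 passed in edgeR, DESeq2 and limma on TPM, 1 of 8 (Lims1) had an unadjusted p under 0.05, and 2.69% of all tested genes passed. In CAF 0 of 8 passed in edgeR and in limma, 2 (Ilk and Lims1) had an unadjusted p under 0.05, 1 (Lims1, adjusted p = 0.0377) passed in DESeq2, and 0.900% of all tested genes passed. Parvb was at 68.2, 63.1 and 29.1 CPM in CAF with siHsp90ab1, against 54.2, 49.4 and 25.8 CPM in CAF controls, which overlapped (log2 fold change 0.31 ± 0.38 SE). In NF with TGFb1 it was at 42.9, 43.7 and 29.8 CPM with siHsp90ab1, against 40.4, 36.1 and 21.2 CPM in the control (0.25 ± 0.38). Within replicates 1, 2 and 3 the log2 ratio of siHsp90ab1 to control was 0.33, 0.35 and 0.17 in CAF and 0.09, 0.27 and 0.49 in NF with TGFb1. With the replicate number as a block Parvb had 0.29 ± 0.13 in each line and did not pass (edgeR adjusted p = 0.327 in CAF and 0.244 in NF).

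Lims2 was at 1.99, 1.53 and 2.73 CPM in CAF with siHsp90ab1, against 2.25, 1.56 and 1.85 CPM in CAF controls (log2 fold change 0.14 ± 0.33). Lims1 was at 187, 196 and 190 CPM in CAF with siHsp90ab1, against 167, 172 and 151 CPM in CAF controls (0.23 ± 0.07, edgeR adjusted p = 0.157). In NF with TGFb1, Lims1 was at 132, 144 and 145 CPM with siHsp90ab1, against 118, 125 and 125 CPM in the control (0.19 ± 0.07, edgeR adjusted p = 0.177). The difference of the siHsp90ab1 effect between CAF and NF did not pass for any of the 8 genes in edgeR, with 0 at an unadjusted p under 0.05 and 0 in DESeq2 and in limma, and 0.00657% of all tested genes passed.

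No partner gene passed with siHsp90ab1 in edgeR, 0 of 39 in NF and 0 of 39 in CAF, with 3 and 4 at an unadjusted p under 0.05. Of all tested genes 2.69% passed in NF and 0.900% in CAF. The smallest p-values in NF belonged to Ilkap, an ILK-associated phosphatase, with a log2 fold change of -0.19 ± 0.07, and to the integrin subunits Itga2 (0.60 ± 0.26) and Itgav (0.30 ± 0.13). In CAF they belonged to Flnc (0.28 ± 0.08), Itgav (0.33 ± 0.13) and Parvg (0.86 ± 0.35). For the difference between the lines they belonged to Ptk2, focal adhesion kinase (0.12 ± 0.09), Kank2 (0.12 ± 0.08) and Rictor (-0.14 ± 0.11), with 0 of 39 passing and 0 at an unadjusted p under 0.05 in edgeR. The siHsp90ab1 comparisons each share control libraries with the siHsp90aa1 comparison in the same line.

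In NF with control siRNA, TGFb1 raised Ilk, Rsu1, Fermt2 and Fblim1, and left Lims1 and Parva within the spread between libraries. Lims2 passed as higher on few counts, a call that did not hold in every fit. Ilk was at 260, 255 and 274 CPM in NF with TGFb1, against 145, 159 and 177 CPM in NF with vehicle, 1.64 times the vehicle mean (log2 fold change 0.71 ± 0.07 SE, edgeR adjusted p = 5.98e-07). Fblim1 was at 132, 119 and 139.7 CPM with TGFb1, against 65.0, 58.0 and 57.5 CPM with vehicle, 2.17 times (1.12 ± 0.13, 4.33e-06). Fermt2 was at 188, 165 and 184 CPM with TGFb1, against 125, 104 and 112 CPM with vehicle (0.65 ± 0.13, 0.00107). Every TGFb1 library was above every vehicle library for Ilk, Fblim1 and Fermt2, as for 19.0% of all tested genes.

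Rsu1 was at 130.5, 121 and 124 CPM with TGFb1, against 114, 87.0 and 83.9 CPM with vehicle (0.40 ± 0.09, edgeR adjusted p = 0.0025). Lims2 rested on 8, 15 and 4 counts with TGFb1 and 4, 2 and 1 counts with vehicle, a ratio of depth-scaled counts of 4.39 with an exact Poisson 95% interval of 1.87 to 11.9 that covers counting error only. Its test passed (log2 fold change 2.05 ± 0.59, edgeR adjusted p = 0.0142), but not without TGFb1 replicate 2 (0.0921), without vehicle replicate 3 (0.0628) or in limma on log2(TPM + 1) (0.318). In the fit with only these groups the filter on low counts removed Lims2, so it was tested only because libraries of other groups kept it in. Lims1 was at 118, 125 and 125 CPM with TGFb1, against 118, 126 and 128 CPM with vehicle (-0.01 ± 0.07). Parva was at 209.7, 213 and 225 CPM with TGFb1, against 204, 194 and 213 CPM with vehicle (0.08 ± 0.10).

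Parvb was at 40.4, 36.1 and 21.2 CPM in NF with TGFb1, against 18.1, 22.4 and 8.51 CPM in NF with vehicle, 1.995 times the vehicle mean. The libraries overlapped and the log2 fold change of 1.00 ± 0.39 did not pass (edgeR adjusted p = 0.0638). Replicate 3 was the lowest Parvb library in 7 of 7 groups, and the labels call the replicate number a batch. Within replicates 1, 2 and 3 the log2 ratio of TGFb1 to vehicle was 1.16, 0.69 and 1.32, and with the replicate number as a block the fold change was 1.04 ± 0.13 and passed (edgeR adjusted p = 1.37e-05). It also passed without TGFb1 replicate 3 (0.0448) or vehicle replicate 2 (0.0415), and without the count filter (0.0442). For siHsp90aa1 the ratios within replicates 1, 2 and 3 were -1.85, -1.96 and -1.68 in NF with TGFb1, and -2.19, -2.13 and -2.22 in CAF.

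**Figure D3:**
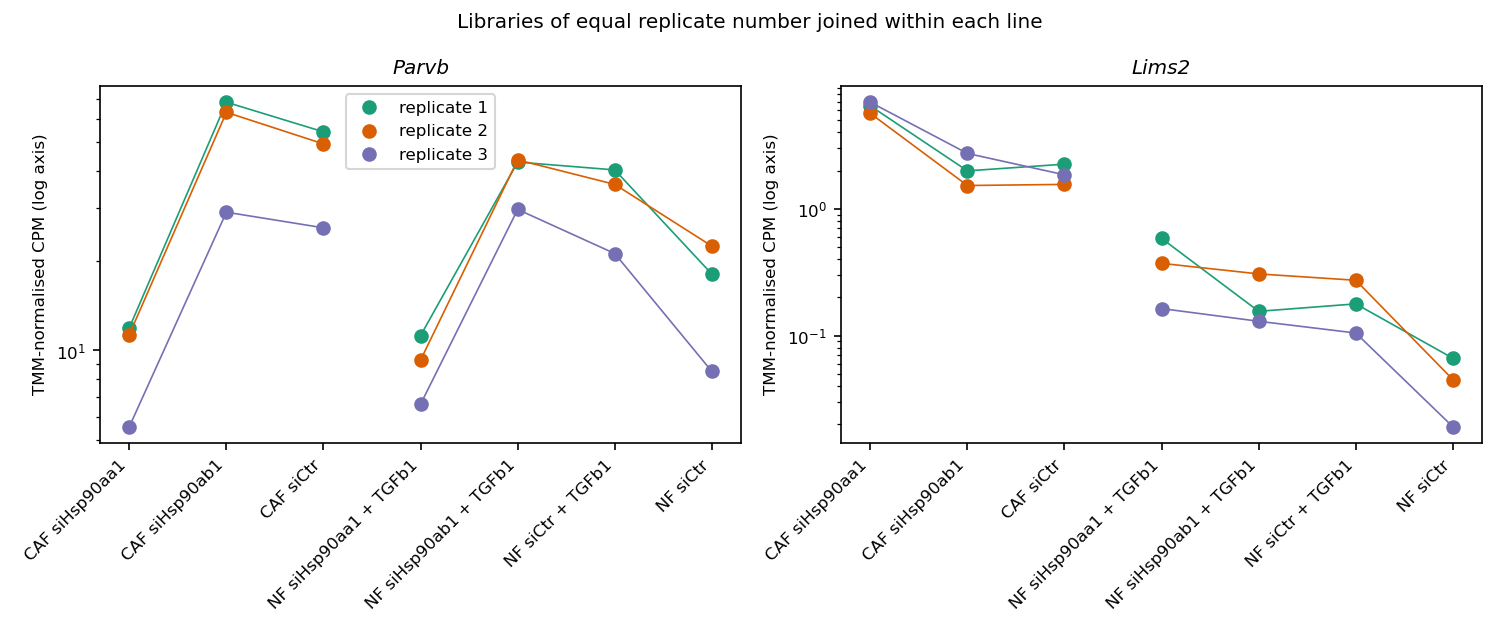
Parvb and Lims2 in every library as TMM-normalised CPM on log axes, with libraries of equal replicate number joined within each line. Replicate 3 was the lowest Parvb library in all 7 groups. For Parvb, not Lims2, siHsp90aa1 libraries were the lowest of each line for every replicate, in CAF the contrast by which the genes were chosen.

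In all, 5 of 8 genes passed as higher with TGFb1 and none fell, while 29.0% of all tested genes passed and 14.6% were higher. Lims2 is among the 5, although the filter on low counts kept it only through libraries of other groups. With the replicate number as a block 6 of 8 passed, Parvb being added, and in limma on TPM 4 of 8, Lims2 being lost. The median log2 fold change of the 8 genes was 0.68, against -0.03 over all tested genes. Of the 39 partner genes 22 rose and 3 fell, among them Itga5, the integrin alpha-5 subunit of the fibronectin receptor (log2 fold change 2.23 ± 0.13, edgeR adjusted p = 1.13e-09), Itgb3 (3.33 ± 0.21, 3.46e-09) and Tns1 (1.90 ± 0.16, 5.79e-08). The partners that fell, Arhgef6, Fermt3 and Stub1, encode a PIX exchange factor, kindlin-3 and a ubiquitin ligase that acts with HSP90, and were named after their values were seen. Mitochondrial genes took 1.93% to 2.81% of counts in NF with TGFb1 and 2.19% to 4.30% in NF with vehicle, and the same count of 5 genes passed without vehicle replicate 1, the highest. The TGFb1 comparison and the NF knockdown comparisons share the libraries of NF with TGFb1. Fermt2 averaged 131 ± 10.8 CPM in NF with siHsp90aa1 and TGFb1, 179 ± 12.2 CPM in NF with TGFb1 and 114 ± 10.7 CPM in NF with vehicle (SD, n = 3), and Fblim1 averaged 88.9 ± 9.21, 130.4 ± 10.3 and 60.2 ± 4.16 CPM in these groups. Parvb averaged 9.04 ± 2.32 CPM in NF with siHsp90aa1 and TGFb1, 32.6 ± 10.1 CPM in NF with TGFb1 and 16.3 ± 7.11 CPM in NF with vehicle, and libraries of NF with siHsp90aa1 and of NF with vehicle overlapped. Ilk averaged 292 ± 8.05, 263 ± 9.77 and 161 ± 16.1 CPM in these groups.

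CAF controls were higher than NF with vehicle for all 8 genes. Fblim1 was at 196, 168 and 139.7 CPM in CAF, against 65.0, 58.0 and 57.5 CPM in NF, 2.79 times the NF mean (log2 fold change 1.48 ± 0.13 SE, edgeR adjusted p = 2.04e-08). Parvb was at 54.2, 49.4 and 25.8 CPM in CAF, against 18.1, 22.4 and 8.51 CPM in NF, 2.64 times (1.40 ± 0.39, 0.00475). Choosing Parvb for a fall from these CAF controls favours a high value in them, so its p-value is not free of that choice. Choosing Lims2 for a rise favours a low one. Lims2 was at 2.25, 1.56 and 1.85 CPM in CAF, against 0.0662, 0.0449 and 0.0191 CPM in NF. Lims2 thus had 304 counts over the CAF controls and 7 over NF with vehicle, a depth-scaled ratio of 44.1 with an exact Poisson 95% interval of 21.1 to 111 that covers counting error only (edgeR adjusted p = 3.22e-08). Summed endothelial markers were 3.56 to 6.44 CPM in CAF controls and 0.305 to 0.596 CPM in NF with vehicle, with Tie1 at 0, and summed epithelial markers were 5.58 to 22.2 CPM and 0.400 to 0.579 CPM. Summed muscle and pericyte markers were 9.36 to 23.4 CPM in CAF controls and 8.80 to 14.9 CPM in NF with vehicle, chiefly Notch3, with Myod1, Myog and Ckm at 0. Myh11 of that list averaged 1.02 ± 0.0772 CPM in CAF controls and 0.150 ± 0.0995 CPM in NF with vehicle (SD, n = 3; log2 fold change 2.70 ± 0.37 SE, edgeR adjusted p = 5.66e-06). The part of these markers in the Lims2 difference was not tested.

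The other genes differed by less. Parva was at 355, 313 and 266 CPM in CAF, against 204, 194 and 213 CPM in NF (log2 fold change 0.61 ± 0.10, edgeR adjusted p = 3.40e-05). Fermt2 was at 195, 169 and 132 CPM in CAF, against 125, 104 and 112 CPM in NF (0.54 ± 0.13, 0.00172). Rsu1 and Lims1 were both higher by 0.40, with standard errors of 0.09 and 0.07 and edgeR adjusted p of 0.00074 and 5.65e-05. Ilk was at 209, 195 and 185 CPM in CAF, against 145, 159 and 177 CPM in NF (0.29 ± 0.07, edgeR adjusted p = 0.00159), a call lost when the fit held only these groups (0.0649). All CAF libraries were above all NF libraries for each of the 8 genes, as for 31.6% of all tested genes.

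All 8 genes passed as higher, beside 61.6% of all tested genes that passed and 31.6% that were higher. Their median log2 fold change was 0.57, against -0.00 over all tested genes. Of the 39 partner genes 24 were higher and 4 lower in CAF, with the smallest p-values for Tns1 (log2 fold change 3.62 ± 0.17, edgeR adjusted p = 2.97e-12), Itga2, the integrin alpha-2 subunit of a collagen receptor (6.40 ± 0.33, 1.31e-11), and Kank2, a talin-binding protein of adhesion borders (0.96 ± 0.06, 1.57e-10). The 4 lower partners were Arhgef7, Bcar1, Ptk2 and Rictor, named after their values were seen. The CAF controls of this comparison are the controls of both CAF knockdowns, among them the one by which the genes were chosen. The count of 8 is thus not free of that choice. Mitochondrial genes took 1.70% to 1.87% of counts in CAF controls and 2.19% to 4.30% in NF with vehicle, highest in NF replicate 1, and all 8 genes also passed without that library.

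Within the parvin pair, the share of Parvb in the TPM of Parva and Parvb was 2.89%, 2.91% and 1.67% in CAF with siHsp90aa1, 15.2%, 14.6% and 8.29% in CAF with siHsp90ab1, and 11.7%, 11.99% and 7.74% in CAF controls. It was 4.19%, 3.28% and 2.33% in NF with siHsp90aa1 and TGFb1, 15.04%, 14.3% and 10.5% in NF with siHsp90ab1 and TGFb1, 14.0%, 12.3% and 7.50% in NF with TGFb1, and 6.91%, 8.82% and 4.22% in NF with vehicle. Every siHsp90aa1 library was thus below every library of the other groups, by a narrow margin (4.19% against 4.22%) for NF with vehicle. In CAF the low Parvb share and the high Lims2 share with siHsp90aa1 follow from the choice of the genes, so nothing is read from them. Within the PINCH pair, the share of Lims2 in the TPM of Lims1 and Lims2 was 8.16%, 6.60% and 8.75% in CAF with siHsp90aa1, 2.81%, 2.04% and 3.69% in CAF with siHsp90ab1, and 3.53%, 2.31% and 3.23% in CAF controls. In the NF libraries it lay between 0.0406% and 0.965%, so PINCH2 transcripts were a small part of the pair throughout.

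**Figure D4:**
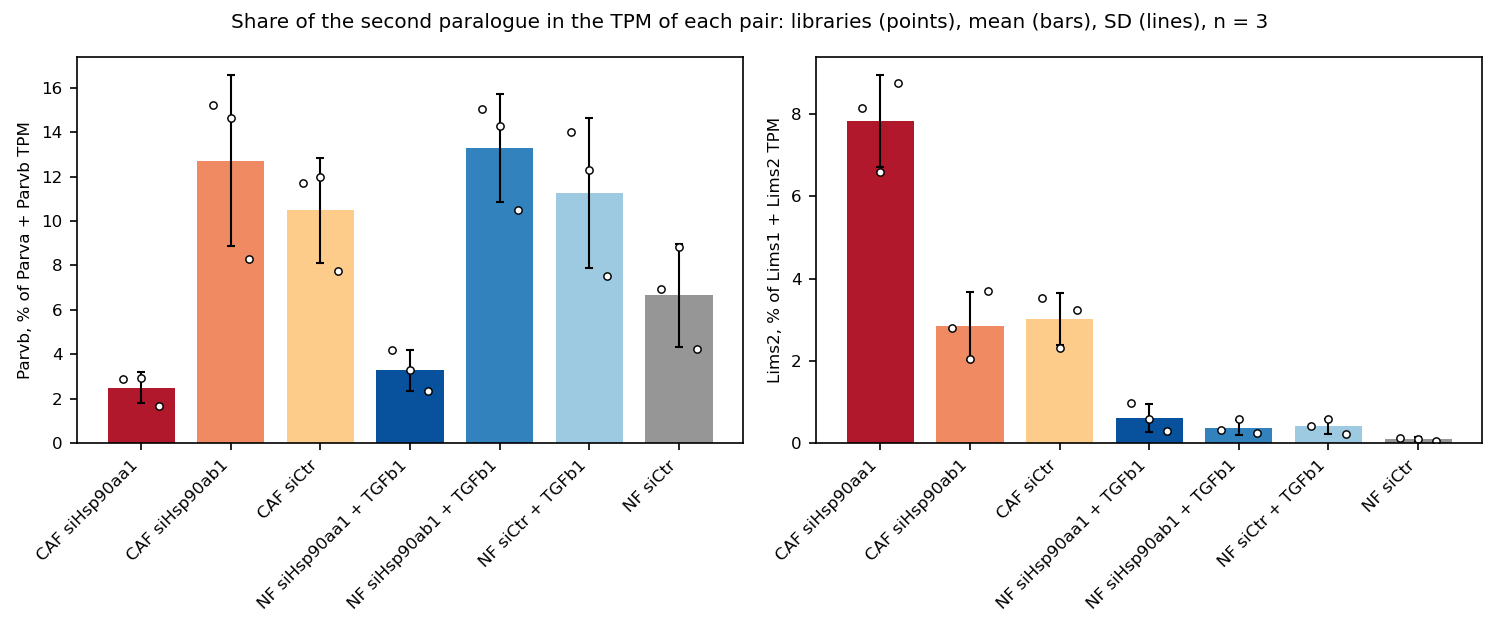
Share of Parvb in the summed TPM of Parva and Parvb (left) and of Lims2 in the summed TPM of Lims1 and Lims2 (right), in percent, for the 7 groups; points are libraries, bars group means and lines SD (n = 3). Parvb held a mean of 2.49% in CAF and 3.27% in NF with siHsp90aa1, and Lims2 a mean of 7.83% in CAF with siHsp90aa1. The genes were chosen by the CAF values with siHsp90aa1.

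The balance of the complex partners was also described as ratios of TPM. The summed parvins over Ilk were 0.546 to 0.629 in CAF with siHsp90aa1, 0.621 to 0.840 in CAF with siHsp90ab1 and 0.723 to 0.916 in CAF controls. They were 0.341 to 0.373 in NF with siHsp90aa1 and TGFb1, 0.386 to 0.458 in NF with siHsp90ab1 and TGFb1, 0.386 to 0.447 in NF with TGFb1 and 0.565 to 0.689 in NF with vehicle. Parvin transcripts per Ilk transcript were thus lower in every NF library with TGFb1 than with vehicle, where Ilk was lower and Parva was similar in level. The summed PINCH genes over Ilk were 0.285 to 0.309 in CAF with siHsp90aa1 and 0.293 to 0.337 in CAF controls, and 0.151 to 0.169 in NF with TGFb1 and 0.251 to 0.311 in NF with vehicle.

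The genes whose log2 CPM followed Parvb most closely over the 21 libraries were Uhmk1 (Pearson r = 0.93), Bcl2 (0.92) and Cnih4 (0.92), as a description over libraries that share groups and batches. Bcl2 encodes an inhibitor of apoptosis. Within the set, r with Parvb was 0.61 for Fermt2 and 0.53 for Fblim1, which ranked 775 and 1202 among all tested genes, and 0.26 or less for the others, down to -0.22 for Ilk and Rsu1. The genes closest to Lims2 were Sync (r = 0.98), which encodes the intermediate filament protein syncoilin, Pld2 (0.97), a phospholipase D, and Klhl18 (0.97). Within the set, r with Lims2 was 0.89 for Lims1 and 0.84 for Parva, which ranked 1036 and 1831 among all tested genes, and 0.01 for Parvb.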

How the data were processed

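RNA was sequenced from 21 libraries of stranded mRNA (TruSeq kit, per the labels' protocols). The authors deposited estimated counts per gene and TPM values, made with STAR and Salmon on GRCm38 per the submitters' processing notes, without versions or parameters in the sources used here. The deposited expected counts were not normalised; 10.9% were not whole and all were rounded, by at most 0.5 each. The deposited TPM values, scaled by transcript length and library, served for levels between genes and in limma.

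Groups came from the titles. Main tests were quasi-likelihood F tests in edgeR 4.0.16 under R 4.3.3, with TMM normalisation, filterByExpr (minimum count 10, minimum total 15), 1 coefficient per group over all 21 libraries and Benjamini-Hochberg adjustment over 15230 genes within each of 7 contrasts, at an adjusted p under 0.05. Standard errors are the absolute log2 fold change over the square root of F, at a prior count of 0.125. Alternatives were DESeq2 1.42.0, size factors (RLE), no filter, only the groups compared, limma 3.58.1 on log2(TPM + 1), the replicate number as a block, and leaving out each library. The scripts were tested on simulated data.

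Equal replicate numbers, called a batch in the labels, pair the libraries. In 53 of 63 same-numbered pairs, deviations from the group means correlated at r over 0.1 (10374 genes; mean 0.31, range -0.05 to 0.84), while libraries of other numbers averaged -0.15. The main fit has no block, and the blocked value is given where it changes a call. Between replicates, chi-square divided by its degrees of freedom was 17.5 to 154, so spread between libraries, not depth, sets the precision, except for Lims2.

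The 8 genes and the partner and marker lists were chosen with earlier results of these data known. Named genes are the 8 genes, the siRNA targets, the 3 partners with the smallest p in each contrast, and the 3 genes with the highest Pearson r of log2 CPM (prior count 2) with Parvb and with Lims2. Promoter windows are from RefSeq.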

Additional observations from a re-analysis of the deposited data

How the results depend on the processing

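Of 814 values of the 8 genes under the alternatives, 729 kept their direction and side of the threshold, 14 lost a call, 9 gained one, 59 changed sign and 3 untested values moved by more than the spread. All 59 sign changes concern values that did not pass or were not tested, each less than 1 standard error from 0 in the original fit. The calls of Parvb, Fblim1 and Lims1 with siHsp90aa1 in NF, and of all but Ilk between CAF and NF, held in every alternative run. The lost and gained calls are given beside their results above; the only other gain is Ilk between the knockdowns in NF, with only the groups compared (adjusted p = 0.0486). The 3 moved values are the CAF siHsp90aa1 log2 fold changes of Lims2 in TPM (1.34) and of Rsu1 without the filter (0.54) and in TPM (0.49). With log2(TPM + 1), the pseudocount lowers the Lims2 difference between CAF and NF to 1.64.

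The replicate block gave Parvb with TGFb1 its call and changed no other call of the 8 genes, with 902 genes in all passing for siHsp90ab1 in NF (409 without it), 360 in CAF (137) and 3 for their difference (1), where the Parvb value became -0.00347. DESeq2 passed 709, 324 and 18 genes in these comparisons, and 1 of the 8 genes in CAF (Lims1). Limma on TPM passed 91 genes in CAF and 16 for the difference, and the groups compared alone passed 5 in CAF. Without 1 library 157 to 329, 44 to 102 and 0 to 2 genes passed.

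Sign changes in log2 fold change were as follows. With the groups compared alone, Lims1 with TGFb1 was 0.00464. In TPM, Parva with siHsp90aa1 in NF was 0.028. With siHsp90ab1 in NF, Ilk was 0.046, Lims2 0.025, Parva 0.025 and Fblim1 -0.025 in TPM, and Lims2 was 0.00266 with size factors. With siHsp90ab1 in CAF, Parva was 0.00486 in TPM and Fermt2 -0.016 without the filter. For the difference between the lines, Lims1 was -0.00037, Parva -0.020 and Parvb -0.021 in TPM, and Parva -0.025 without the filter.

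Without 1 library, Lims1 with TGFb1 ranged from -0.047 to 0.00305. Parva ranged from -0.046 to 0.023 with siHsp90aa1 against the control in NF and from -0.026 to 0.047 against siHsp90ab1. With siHsp90ab1 in NF, Ilk ranged from -0.046 to 0.022, Lims2 from -0.42 to 0.41, Parva from -0.044 to 0.00801 and Fblim1 from -0.00144 to 0.11. With siHsp90ab1 in CAF, Lims2 ranged from -0.11 to 0.31, Parva from -0.13 to 0.086, Fermt2 from -0.13 to 0.14 and Fblim1 from -0.00864 to 0.24. For the difference between the lines, Lims1 ranged from -0.023 to 0.074, Lims2 from -0.28 to 0.55, Parva from -0.10 to 0.11, Parvb from -0.21 to 0.36 and Fblim1 from -0.067 to 0.18. In CAF with siHsp90aa1, Parva ranged from -0.15 to 0.064 and Fermt2 from -0.23 to 0.046. The cause of these changes was not tested.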
